A study of Brassica rapa subsp. pekinensis with 6 samples.

Results

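The genes described here are 3 copies of *SUPPRESSOR OF OVEREXPRESSION OF CONSTANS 1* (*SOC1*) in Chinese cabbage, *Bra000393*, *Bra004928* and *Bra039324*, taken by their identifiers from 35616 genes with reads. They were measured by RNA-Seq of developing flower buds at full bloom in the female-sterile mutant *fsm* and in its wild type ‘FT’, a doubled-haploid line, with 3 libraries per line (M1, M2 and M3 for *fsm*, F1, F2 and F4 for ‘FT’). The mutant arose from ‘FT’ by treating isolated microspores with ethyl methanesulfonate, so 1 mutant line stands against 1 wild-type line, and no source used here names the mutated gene. A replicate held all buds from 3 inflorescences on each of 5 plants, from seed sown in December and sampled in the following March. The methods also state that RNA of the replicates was pooled before the libraries were made. The p-values then measure the spread between these libraries, which may be technical.

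*SOC1* encodes a MADS-domain transcription factor. In *Arabidopsis thaliana* it integrates flowering signals: the photoperiod pathway acts on it through CONSTANS and FLOWERING LOCUS T, gibberellin promotes it, and the repressors FLC and SVP hold it down. Its protein acts with AGL24 at the shoot apex to activate *LEAFY*, and *SOC1* is normally lowered in young floral meristems after the floral transition. The *Brassica rapa* genome went through a triplication after its split from the *Arabidopsis* lineage, so that many genes have several copies. The files give identifiers and no gene names, and the reference gene table used here links none of the 3 identifiers to a symbol, so the name *SOC1* rests on the identifiers chosen. No sequence of the copies is shown, because none was at hand for this genome version.

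In units of 1000000 reads, the libraries held 28.1 to 29.4 in *fsm* and 25.0 to 25.4 in ‘FT’. Across genes, Pearson's r of log2(CPM + 1), where CPM is a read count scaled to a library of 1000000 reads, was 0.997 within each line and 0.852 to 0.855 between lines. The difference between the lines was broad, and the copies are therefore read against the share of all genes that moved as they did. No batch is given in the labels, so that any batch that follows the lines cannot be told apart from them. As a check of the tissue, 6 pollen-expressed genes were examined. All 6 had reads in every library, and their summed RPKM (the same per kilobase of gene length) was 91.7 to 110 in *fsm* and 2116 to 2169 in ‘FT’. The study named these 6 genes from the same libraries, so their fall is not independent evidence. It reported small amounts of pollen in *fsm*, found this pollen viable by staining, and obtained seed when *fsm* pollinated ‘FT’. In buds sequenced whole, fewer cells of a type and less RNA per cell cannot be told apart. The part of these pollen transcripts in the results on *SOC1* was not tested.

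All 3 *SOC1* copies were more abundant in *fsm*, with no overlap in normalized CPM between the lines. Such a separation upwards was found for 37.5% of all genes. The copies did not move equally: *Bra000393* was 4.89-fold higher in *fsm*, *Bra039324* was 2.60-fold higher, and *Bra004928* was 1.75-fold higher. At an adjusted p of at most 0.001 in the quasi-likelihood test of edgeR, adjusted over all genes by the Benjamini-Hochberg method, 3 of 3 copies were higher in *fsm*, against 30.6% of all genes. With a log2 fold change of at least 1 as well, which was the first threshold of the study, 2 of 3 copies were called up-regulated, against 18.7% of all genes. None of the 3 reached the absolute log2 fold change of 4 that defined a differentially expressed gene in the study, a limit that 5.26% of all genes passed in either direction.

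*Bra000393* changed most. Its RPKM was 51.6, 50.7 and 57.7 in M1, M2 and M3, against 10.5, 10.5 and 13.3 in F1, F2 and F4. The lowest *fsm* library lay far above the highest ‘FT’ library, and F4 stood above the other two ‘FT’ libraries. These values came from 972, 927 and 1042 reads in *fsm* and from 171, 169 and 214 reads in ‘FT’. On the log2 scale the copy was 2.29 higher in *fsm*, with a standard error of 0.10 and a 95% interval of 2.09 to 2.49 (edgeR, adjusted p = 2.4e-24). Of all genes, 10.4% had a larger log2 fold change.

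*Bra004928* was at nearly the same level as *Bra000393* in ‘FT’ but changed least. It had 16.1, 18.2 and 16.3 RPKM in M1, M2 and M3, against 10.5, 9.75 and 10.1 RPKM in F1, F2 and F4. The lines did not overlap, but the gap between them was small beside that of *Bra000393*. The reads were 304, 333 and 295 in *fsm* and 171, 157 and 162 in ‘FT’. Its log2 fold change was 0.81, with a standard error of 0.12 and a 95% interval of 0.57 to 1.05 (edgeR, adjusted p = 4.7e-08). It stayed below the limit of 1, which lies inside this interval, and 27.8% of all genes had a larger log2 fold change.

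*Bra039324* was the least abundant copy in every library. It had 6.95, 7.10 and 7.15 RPKM in M1, M2 and M3, against 2.88, 2.42 and 3.24 RPKM in F1, F2 and F4. The *fsm* libraries were nearly equal and all lay above the ‘FT’ libraries. Only 131, 130 and 129 reads in *fsm* and 47, 39 and 52 reads in ‘FT’ stand behind these values, and the 39 reads of F2 have a 95% exact Poisson interval of 27.7 to 53.3 reads. The fitted difference was 1.38 on the log2 scale, with a standard error of 0.18 and a 95% interval of 1.01 to 1.75 (edgeR, adjusted p = 6.9e-09). A larger log2 fold change was found for 18.8% of all genes.

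**Figure D1:**
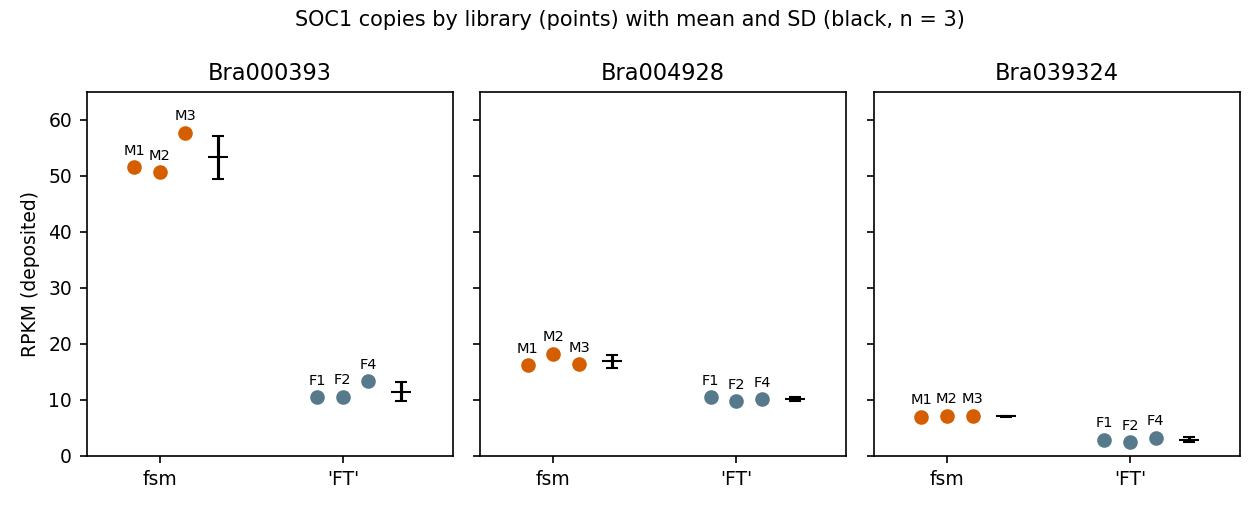
Deposited RPKM (vertical axis, from 0) of each SOC1 copy in the 3 fsm libraries and the 3 ‘FT’ libraries, 1 point per library, with the mean and SD in black. Bra000393 lies between 50.7 and 57.7 RPKM in fsm and between 10.5 and 13.3 RPKM in ‘FT’, and the other copies are separated by smaller steps.

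The 3 copies have the same gene length in the files, 642 bases, so their RPKM can be set side by side. In *fsm* the order was *Bra000393* (53.3 ± 3.85 RPKM), *Bra004928* (16.9 ± 1.14 RPKM) and *Bra039324* (7.07 ± 0.104 RPKM; mean ± SD, n = 3 each), with no overlap between neighbours. In ‘FT’ the means were 11.4 ± 1.64, 10.1 ± 0.367 and 2.85 ± 0.410 RPKM (SD, n = 3 each) in the same order of copies. There *Bra000393* and *Bra004928* had 171 reads each in F1, and their levels did not differ beyond the spread between libraries, whereas *Bra039324* was lower than both in each ‘FT’ library. Ranked by RPKM among the genes with reads in a library, *Bra000393* was at the 87.2nd to 88.6th percentile in *fsm* and at the 55.5th to 61.4th in ‘FT’. The percentiles of *Bra004928* were 64.3 to 67.2 in *fsm* and 53.8 to 55.7 in ‘FT’. Those of *Bra039324* were 46.2 to 46.4 in *fsm* and 29.2 to 33.3 in ‘FT’.

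**Figure D2:**
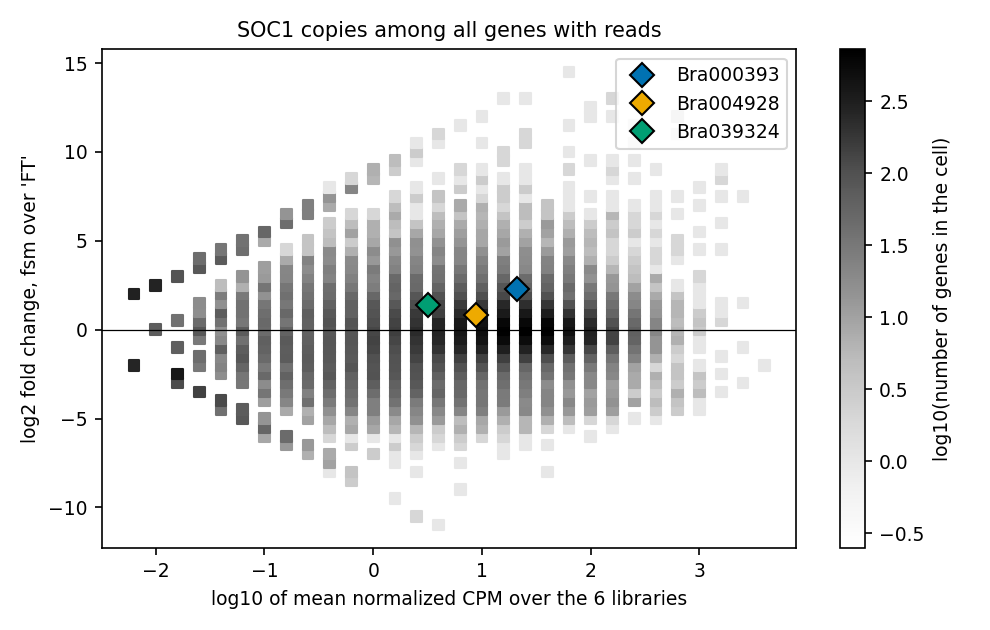
Log2 fold change of fsm over ‘FT’ (vertical axis) against the log10 of the mean normalized CPM over the 6 libraries (horizontal axis), with all 35616 genes shown as shaded cells by their number and the SOC1 copies as diamonds. The copies lie above 0 at 2.29, 0.81 and 1.38, within the broad band of genes of like abundance.

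The ratio of 2 copies within a library does not depend on how the library is scaled, and it was used to ask whether the copies changed by different amounts. *Bra000393* had 3.20, 2.78 and 3.53 times the RPKM of *Bra004928* in M1, M2 and M3, against 1.0, 1.08 and 1.32 times in F1, F2 and F4. Relative to *Bra004928*, *Bra000393* was thus up by a further 1.48 on the log2 scale (0.1 RPKM added to both copies). It had 7.42, 7.13 and 8.08 times the RPKM of *Bra039324* in the *fsm* libraries, against 3.64, 4.33 and 4.12 times in the ‘FT’ libraries, a difference of 0.93 in log2 ratio. *Bra039324* had 0.431, 0.390 and 0.437 times the RPKM of *Bra004928* in *fsm*, against 0.275, 0.248 and 0.321 times in ‘FT’, a difference of 0.56 in log2 ratio. In each of the 3 pairs the *fsm* libraries lay on 1 side of the ‘FT’ libraries (two-sided exact permutation test over libraries, p = 0.1 and adjusted p = 0.1 over the 3 pairs). This is the smallest p that the permutation test can give with 3 libraries against 3, so that it cannot fall below 0.05 here.

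The sum of the copies was 74.6, 76.0 and 81.2 RPKM in M1, M2 and M3, against 23.9, 22.7 and 26.7 RPKM in F1, F2 and F4. In normalized CPM the sum was 50.8 ± 1.83 in *fsm* and 15.3 ± 1.37 in ‘FT’ (SD, n = 3 each), a ratio of 3.33. Of the gain of 35.6 CPM, 78.5% came from *Bra000393*, 13.5% from *Bra004928* and 8.06% from *Bra039324*.

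The share of each copy in the *SOC1* reads differed accordingly. *Bra000393* held 69.0% ± 2.20 in *fsm* and 46.8% ± 3.05 in ‘FT’ (SD, n = 3 each). *Bra004928* held 21.9% ± 1.93 in *fsm* and 41.6% ± 3.29 in ‘FT’. *Bra039324* held 9.15% ± 0.308 in *fsm* and 11.6% ± 0.827 in ‘FT’, so its share was lower in *fsm* although its own level was higher. The ranges over libraries did not overlap for any of the copies. For *Bra039324*, however, the Wilson 95% intervals of single libraries did, for example 7.45% to 10.4% in M3 and 7.92% to 14.3% in F2. For *Bra000393* the interval nearest to ‘FT’ was 64.2% to 69.1% in M2, and the interval nearest to *fsm* was 45.3% to 54.7% in F4. These intervals cover counting error only.

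**Figure D3:**
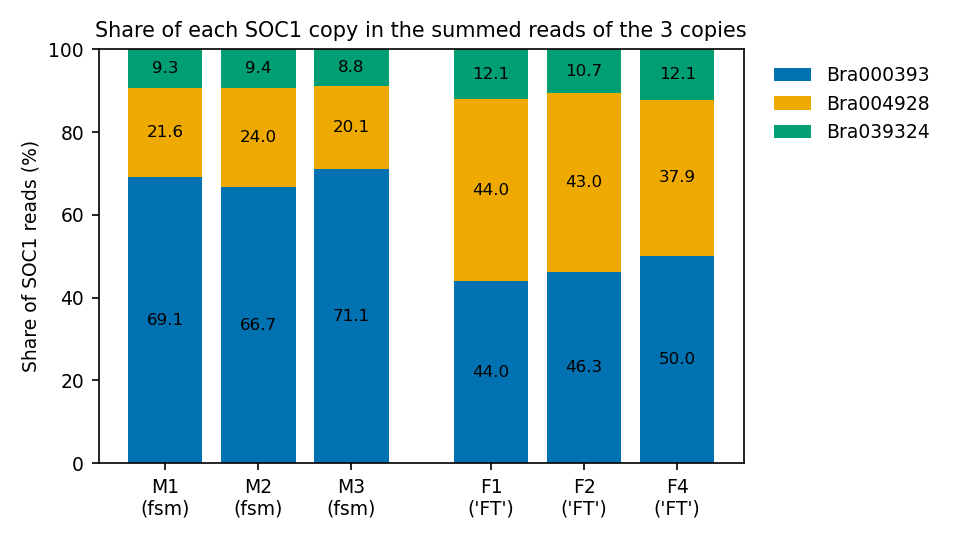
Share of each SOC1 copy in the summed reads of the 3 copies (percent, vertical axis), 1 stacked bar per library, with fsm libraries on the left and ‘FT’ libraries on the right. The share of Bra000393 is 66.7% to 71.1% in fsm and 44.0% to 50.0% in ‘FT’.

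Copies of a gene can share reads. The methods describe the reads used as uniquely matched. The deposited counts of a library, however, sum to more than the uniquely matched reads listed for it, and also to more than all its mapped reads. The source of this excess is not given, and it is not known whether each counted read matched 1 place only. The study also listed a larger share of mapped reads in each *fsm* library than in any ‘FT’ library. It reported single nucleotide polymorphisms specific to each line. What these differences do to the counts of the copies was not tested. The part of each copy that reads reached was examined in the deposited coverage (the percentage of the gene length covered by reads). *Bra000393* was covered over 98.6%, 98.0% and 99.5% of its length in M1, M2 and M3 and over 98.3%, 97.8% and 97.5% in F1, F2 and F4. At most 16 of its 642 bases had no read in a library. *Bra004928* had at most 20 bases without a read, with coverage of 96.9% to 99.4% in *fsm* and 97.8% to 99.5% in ‘FT’. Reads assigned to these copies thus reached nearly the whole length of both in both lines.

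Coverage was lower for *Bra039324*, the copy with the fewest reads. It was 97.2%, 93.8% and 93.3% in M1, M2 and M3, against 87.2%, 87.4% and 95.3% in F1, F2 and F4, and 82 bases of F1 and 81 bases of F2 had no read. Genes within 10% of its length and 20% of its read count had a median coverage of 94.3% in F1 (143 genes) and 93.3% in F2 (147 genes), and 23.1% and 27.2% of them were covered less than *Bra039324*. The lines overlapped in coverage for each copy, and two-sided exact permutation tests, whose lower limit here is a p of 0.1, gave p = 0.2 for *Bra000393*, p = 0.6 for *Bra004928* and p = 0.3 for *Bra039324* (adjusted p = 0.45, 0.6 and 0.45). The mean coverage of *Bra039324* was 4.78 percentage points higher in *fsm*, or 7.45 without F4, and that of *Bra000393* was 0.83 points higher, or 1.19 without M2. These were the largest differences for the 2 copies when 1 library was left out at a time. Leaving out that library took away the overlap between the lines. The exact test then gave p = 0.1, the smallest it can give, so nothing is read from it. Without any other single library, the exact test gave p = 0.3 to 0.5 for *Bra039324* and p = 0.2 to 0.4 for *Bra000393*. How the authors' counting divided reads that match more than 1 copy was not tested, and the copies' separate counts are uncertain to that extent.

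**Figure D4:**
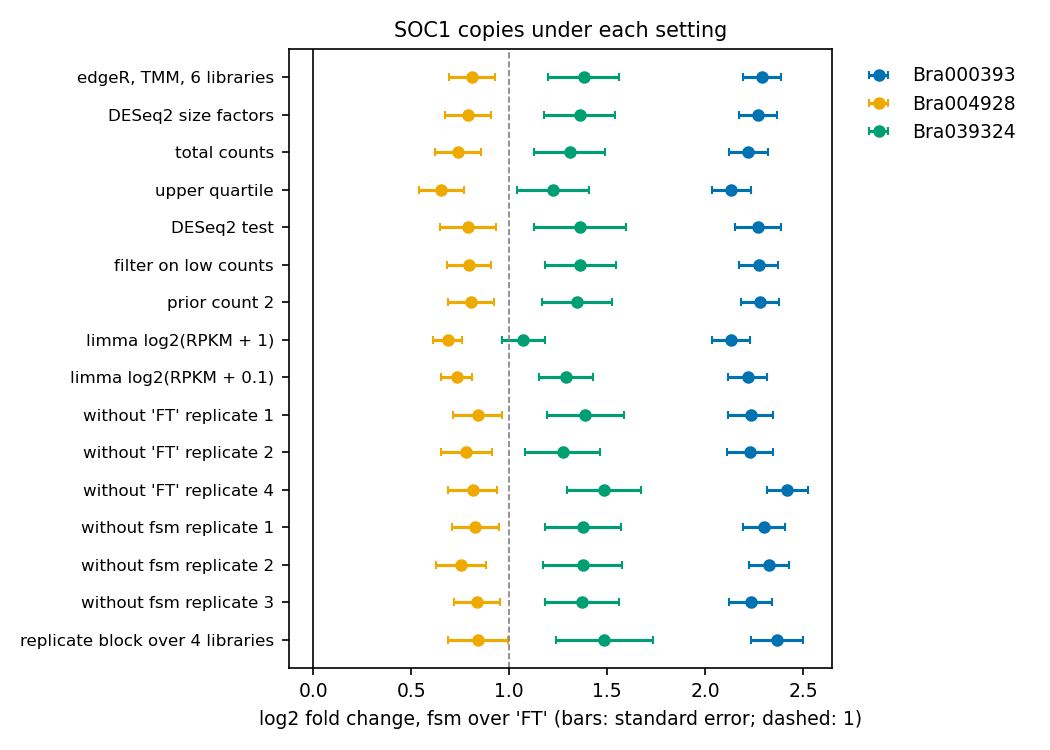
Log2 fold change of each SOC1 copy, fsm over ‘FT’ (horizontal axis), under the setting used in the text (top) and each alternative, with standard errors as bars and a dashed line at 1. In each setting Bra000393 lies highest, from 2.13 to 2.42, then Bra039324, from 1.07 to 1.49, then Bra004928, from 0.65 to 0.84.

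Genes that act on *SOC1* or on the same decision could be taken only where the study or its tables name them, and most were named there because they differed strongly between these lines. Of 5 flowering-time genes taken in that way, 5 were up-regulated, against 18.7% of all genes, which is not independent evidence of a direction. The *FLOWERING LOCUS T* gene *Bra022475* encodes the mobile florigen, which activates *SOC1* in *Arabidopsis*. It had 71.1, 51.6 and 55.6 RPKM in M1, M2 and M3, against 0.746, 1.06 and 1.29 RPKM in the ‘FT’ libraries. Its log2 fold change was 5.91, with a standard error of 0.17 (edgeR, adjusted p = 7.7e-31). Its relative *BFT* (*Bra010052*), which represses flowering in *Arabidopsis*, had 335, 340 and 397 reads in *fsm*, against 2, 2 and 0 reads in ‘FT’. *EFL1* (*Bra000468*), of the family of the clock gene *EARLY FLOWERING 4*, had 178, 179 and 171 reads in *fsm*, against 4, 7 and 5 reads in ‘FT’. For *Bra022475*, *Bra010052* and *Bra000468* the study also ran quantitative PCR on the same plant samples, and it reported trends similar to those of RNA-Seq.

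Both genes described as *TERMINAL FLOWER 1*, a floral repressor, were scarce. *Bra009508* had 15, 16 and 12 reads in *fsm* and 0 in each ‘FT’ library, at least 13.2-fold higher when ‘FT’ is set to a floor of 3 reads over its 3 libraries. *Bra028815* had 63 reads over the *fsm* libraries and 3 over the ‘FT’ libraries, a ratio of 19.4 (95% exact counting interval 6.33 to 96.5). The median log2 fold change of the 5 genes was 5.91, or 4.90 with *Bra009508* at its bound, against -0.02 over all genes.

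Gibberellin promotes *SOC1* in *Arabidopsis*, and 4 genes of its metabolism are described in the study's tables. They did not share a direction, with 2 up-regulated, against 18.7% of all genes, and 2 down-regulated, against 18.0% of all genes. The list was again chosen on these libraries. *GA2OX6* (*Bra033324*), an enzyme that inactivates gibberellin, had 289, 227 and 222 reads in *fsm*, against 9, 0 and 14 reads in ‘FT’. The other gibberellin 2-oxidase, *Bra035038*, had 0 reads in each *fsm* library and 11, 9 and 6 reads in ‘FT’, at least 9.39-fold lower in *fsm* with the same floor. The median log2 fold change of the 4 genes was 0.37, or 0.82 with *Bra035038* at its bound, against -0.02 over all genes. With 2 genes far above 0 and 2 far below, this median describes none of them, and nothing is read from it.

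*SOC1* represses cold-responsive *CBF* genes in *Arabidopsis*. Of 8 genes described in the study's tables as CBF, DDF or DREB factors, which drive responses to cold, drought and heat, 8 were up-regulated, against 18.7% of all genes. The descriptions are *CBF4*, *DDF1*, *DREB2A* and *DREBIII-4*, and whether *SOC1* acts on any of these genes was not tested. They came from the study's list of changed genes, and their median log2 fold change was 6.11. The 2 most abundant were the *DREB2A* gene *Bra009112*, with 602, 637 and 634 RPKM in M1, M2 and M3 against 13.4, 14.8 and 15.2 RPKM in F1, F2 and F4, and the *DDF1* gene *Bra016763*, with 124, 96.8 and 105 RPKM against 1.36, 1.18 and 0.723 RPKM. The log2 fold changes ranged from 4.23 for *DREBIII-4* (*Bra023026*) to 6.84 for another *DREB2A* gene (*Bra005852*). Because of the limit of 4, they are not compared in size with those of the *SOC1* copies.

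Another list held 15 genes with a term for flower or floral organ development, photoperiodism or gibberellin in the readable part of the study's gene table. That part holds the genes with most reads in F1, an ‘FT’ library, so that its choice favours genes that are lower in *fsm*, and nothing is read from its counts. Of these genes, 4 were down-regulated, against 18.0% of all genes, and 11 were not called in edgeR. The gene that fell most was *Bra015093*, annotated for photoperiodism, with a log2 fold change of -2.81, and the highest value was 0.47 for *Bra032937*, annotated for gibberellin signaling. By mean RPKM over the 6 libraries the most abundant was *Bra006969*, annotated for floral whorl development, with 501 RPKM in *fsm* and 469 RPKM in ‘FT’ on average (log2 fold change 0.17, adjusted p = 0.011 from edgeR, not called).

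The 6 pollen markers were all down-regulated, against 18.0% of all genes, with a median log2 fold change of -4.22. The *VGD1* genes *Bra000438* and *Bra040474*, pectin-modifying enzymes of pollen tube growth, averaged 43.2 and 23.5 RPKM in *fsm*, against 791 and 490 RPKM in ‘FT’. The *AGP23* genes *Bra016902* and *Bra003296*, which encode arabinogalactan peptides, had the smallest and largest decreases, with log2 fold changes of -4.05 and -5.89.

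**Figure D5:**
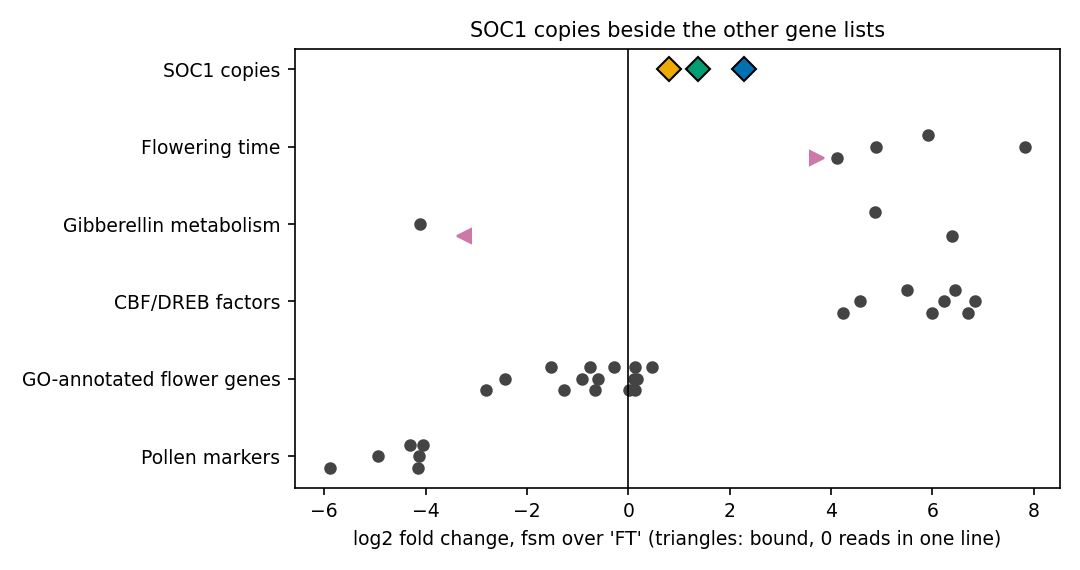
Log2 fold change of fsm over ‘FT’ (horizontal axis) for the SOC1 copies (diamonds) and the genes of each other list (circles), with triangles at the bound where 1 line had 0 reads. The SOC1 copies lie at 0.81 to 2.29, the CBF/DREB factors at 4.23 to 6.84 and the pollen markers at -5.89 to -4.05. The CBF/DREB factors and pollen markers came from the study's list, which required an absolute value of at least 4, so their distance from the SOC1 copies follows from that choice.

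The profile of each copy over the 6 libraries was compared with 29004 other genes with a mean normalized count of at least 11, by the root mean square difference between centred log2(CPM + 0.1) profiles. The nearest gene was *Bra027455* for *Bra000393* (difference 0.057), *Bra008335* for *Bra004928* (0.023) and *Bra012972* for *Bra039324* (0.023). No source used here pairs these genes with a name. Many genes came close, with 550 within 0.2 of *Bra000393*, 3749 within 0.2 of *Bra004928* and 1667 within 0.2 of *Bra039324*. The copies were less like each other: *Bra000393* and *Bra004928* differed by 0.76, *Bra000393* and *Bra039324* by 0.48, and *Bra004928* and *Bra039324* by 0.29. For example, 3129 other genes were nearer to *Bra000393* than *Bra039324* was. With 2 lines of 3 libraries, this likeness rests mainly on the size of the difference between the lines.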

How the data were processed

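The authors aligned clean reads to the *Brassica rapa* genome, version 1.5, with SOAP2, allowing 5 mismatches. For each gene and library they deposited a read count, named as unique reads in the file headers and not normalized, and the RPKM. They also deposited a coverage score, the percentage of the gene covered, which slightly exceeds 100 in a few genes. The tool that counted reads, and whether both ends of a fragment were counted, were not given in the sources used here. The deposited counts of a library sum to the total in its header, which exceeds both the uniquely matched and the total mapped reads listed for it in the study. Genes left out of a library were taken as 0 reads. Lengths are coding lengths, and the library was not stated to keep strand.

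Counts of all 6 libraries were fitted in R 4.3.3 with edgeR 4.0.16 (TMM, quasi-likelihood test, no covariate, no filter on low counts, prior count 0.125) over every gene, with Benjamini-Hochberg adjustment. Genes were called at an adjusted p of 0.001 or lower where the log2 fold change was also 1 or more in size. Its standard error was the log2 fold change divided by the square root of F. The floor behind the bounds was 3 reads over the 3 libraries of a line together, and it covers counting error only. In a single library, 3 reads would correspond to 0.102 to 0.120 CPM, a higher floor that was not used for the bounds. Alternatives used DESeq2 1.42.0 and limma 3.58.1. The main edgeR fit, the DESeq2 test, the limma fits and the replicate block were tested on simulated data. The other scalings, the filter on low counts and the other prior count were not. In the simulation few genes were changed, in equal numbers up and down. It therefore does not test scaling under a difference as broad as that between these lines.

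The members and gene lists were chosen with earlier results of these data known. Named genes were the 3 copies, all flowering-time and gibberellin genes, up to 4 of each other list (largest and smallest fold change, 2 most abundant) and the gene nearest in profile to each copy. The libraries of a line differed by more than the sampling noise of independent reads, with a chi-square per gene of 3.01 to 7.37 where 1 is that noise alone. If both ends of a fragment were counted, which is not known, noise alone would give a higher value than 1.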

Additional observations from a re-analysis of the deposited data

How the results depend on the processing

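Under the 15 alternatives tried for each copy, the 3 *SOC1* copies kept their direction and their side of the thresholds. The log2 fold change ranged from 2.13 to 2.42 for *Bra000393*, from 0.65 to 0.84 for *Bra004928* and from 1.07 to 1.49 for *Bra039324*, and the highest adjusted p over these fits was 8.8e-08, 3.4e-05 and 2.2e-05 in the same order (edgeR, DESeq2 or limma). Upper quartile scaling moved the median log2 fold change of all genes by -0.16, and the copies then had 2.13, 0.65 and 1.22. Under that scaling 5 of the 15 annotated flower genes were down-regulated in place of 4, and 4 uncalled genes of that list changed sign, against 1 under total counts and 1 under DESeq2's size factors. Without 1 library at a time, the values were 2.23 to 2.42, 0.75 to 0.84 and 1.27 to 1.49, and the number of genes called was 12052 to 12572, against 13069 with all libraries. Raising the limit on the size of the log2 fold change to 4 left 1873 genes. In a fit with a replicate block, which took the 4 libraries that carry number 1 or 2, 12216 genes were called and the copies had 2.37, 0.84 and 1.49. The numbers 1 and 2 mark no shared origin in the labels, and deviations from the line means correlated at -0.03 (M1 with F1) and 0.04 (M2 with F2) across 29007 genes. The shares of the copies, the ratios between copies and the coverage kept their direction, or stayed within 1 SD, under each alternative tried for them.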

Other observations

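Genes of 1 description moved together in most of the other lists: *TFL1*, *DDF1*, *DREB2A*, *VGD1* and *AGP23* genes each kept 1 direction. The gibberellin oxidases did not. Whether genes of 1 description are copies of the same gene was not tested. The 2 genes described as gibberellin 20-oxidases, enzymes of gibberellin synthesis, moved in opposite directions, as did the gibberellin 2-oxidases above. *Bra009285* had 90, 66 and 59 reads in M1, M2 and M3, against 0, 0 and 2 reads in the ‘FT’ libraries, a ratio of 99.2 (95% exact counting interval 27.1 to 824). *Bra028706* had 0, 2 and 1 reads in the *fsm* libraries, against 24, 16 and 14 reads in the ‘FT’ libraries, a ratio of 0.051 (interval 0.010 to 0.16). Both were called in edgeR, and both were named in the study's list of changed genes, so that their difference is not independent evidence.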
